A study of Mus musculus with 9 samples.

Results

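The genes described here are 35 mouse genes of macrophages and of phagocyte activation, measured in whole sciatic dorsal root ganglia (DRG), the ganglia that hold the cell bodies of the sensory neurons whose axons run in the sciatic nerve. They were taken by symbol, and all 35 symbols were found among the 45904 identifiers of the deposited table. The symbols were chosen with earlier results of these data known, that is with the FPKM of all 3 groups in view and selected on no single threshold, so the statistics below describe the members and are no independent support for a change of the set. RNA came from C57BL/6 mice in 3 groups of 3 libraries. The young sham group held mice of 8 to 10 weeks after sham surgery, the aged sham group mice of 20 to 22 months after the same surgery, and the aged injury group mice of 20 to 22 months with an injured sciatic nerve. Every library was a pool of ganglia from 2 mice, collected 24 h after the operation, and no group carried a transgene per the labels. Young injured ganglia were not analysed here. Aged sham set against young sham addressed age, and aged injury set against aged sham addressed the early response to nerve injury. Levels are in FPKM, which corrects fragment numbers for gene length and library depth, and differences are given as log2(FPKM + 0.1), a scale on which changes of low genes appear smaller than they are.

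Macrophages of the DRG lie around the neuron cell bodies and along the vessels, clear debris and dead cells, and increase in number in the days after nerve injury. They depend on signalling through the colony-stimulating factor 1 receptor and take up particles through Fc, lectin and lipid receptors. Many of these receptors have no signalling tail of their own and pair with the small adaptors Tyrobp (DAP12), Fcer1g (the common gamma chain of Fc receptors) or Hcst (DAP10). The first pair carry activating tyrosine motifs that recruit the kinase Syk. Ingested material passes to an oxidase that makes superoxide and to lysosomes. Several members are not exclusive to macrophages: Ptprc, Cd52, Cd53, Coro1a, Laptm5, Itgb2 and Hcst are shared with lymphocytes, Fcgr2b with B cells, Itgam, Fcer1g and Cybb with neutrophils, and Lgals3, Spp1 and Tspo with neurons or glia.

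All 35 members were above 0 in all 9 libraries, and all 35 passed the filter of a mean of 0.2 FPKM, so none was left out. Their mean level over all libraries ran from 0.518 FPKM for Itgax to 159 FPKM for Spp1, and 27 of 35 had a young mean above 1 FPKM. The defining macrophage markers Csf1r, Cd68 and Adgre1 were present in every library, at 1.39 to 6.80 FPKM. In bulk tissue, more cells of a type and more RNA per cell cannot be told apart.

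Between 20237 and 21100 identifiers were above 0 per library, and relative depth ran from 0.846 to 1.225 times that of young sham replicate 1. The FPKM of the members could be read as whole fragments within a tolerance of 0.01, taking for each gene the smallest whole numbers that match all libraries, with 2 fragments as the lowest number and Hcst, Itgax and Trem2 resting on few fragments, while Spp1 rested on 2403 to 4323. Sex also differed between the groups. The female-specific RNA Xist stood at 0 to 0.02 FPKM in young sham and at 9.77 to 13.05 FPKM in 5 aged libraries, with aged sham replicate 1 between them (1.75 FPKM). Y-linked genes in aged sham replicate 1 reached 67.9% of their young mean and at most 0.07% in the other aged libraries. By these genes the young pools were male, aged sham replicate 1 was of both sexes and the other aged pools were female, and age and sex cannot be told apart in any comparison with young sham. Injury and sham of the aged mice can be compared within 1 sex by leaving out aged sham replicate 1.

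Every member had a higher mean log2 level in aged than in young sham (35 above 0 and 0 below, against 56.7% above and 43% below among all genes), with a median difference of 0.98, against 0.05 over all genes tested. In the fit across all 17601 genes (limma with Benjamini-Hochberg adjustment), 10 of the 35 passed an adjusted p under 0.05, all higher: Csf1r, Cd68, Lyz2, Tyrobp, Fcer1g, Trem2, Fcgr2b, Lgals3, Tspo and Gpnmb. Of all genes tested 2.53% were called higher and 1.49% lower, and nothing is read from this difference because the symbols were chosen with such results known. In 33 of 35 members the aged sham libraries all lay above the young ones, against 17.7% of all genes. The exceptions were Fcgr1 and Cd14. Another 12 members had adjusted p-values between the threshold and 0.1, and 17 of 35 differed more than 2-fold.

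After injury, none of the 35 members passed the test against aged sham (limma, lowest adjusted p = 0.0624, for Fcgr2b), while 4.11% of all genes were called, 2.45% higher and 1.65% lower. Without adjustment, 3 members had p under 0.05: Fcgr2b, which was higher, and Trem2 and Coro1a, which were lower. Of the 35, 14 had a log2 difference above 0 and 21 below, against 47.8% above and 52.1% below among all genes. Their median was -0.07, against -0.01. The split depended on single libraries. Without aged sham replicate 1, which leaves aged pools of 1 sex, 6 were above 0 and 29 below. It was 7 and 28 without aged injury replicate 2, 25 and 10 without aged sham replicate 2, and 24 and 11 without aged injury replicate 1. The shares over all genes were not computed for these fits. The 3 libraries of each aged group did not overlap for Fcgr1 and Fcgr2b, higher after injury, and for Coro1a, lower, against 11.7% of all genes in the higher and 13.7% in the lower direction.

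Aged injury against young sham gave 14 members called, all higher, with a median log2 difference of 0.94, while 8.2% of all genes were called higher and 4.89% lower. The libraries of the groups did not overlap in 31 members, against 19.9% of all genes in this direction, and 35 of 35 had a difference above 0, against 53.2% above and 46.5% below among all genes. Csf1r, Cd68, Tyrobp, Fcer1g, Fcgr2b, Lgals3, Tspo and Gpnmb were called here as well as in aged sham, Cd52, Mpeg1, Itgam, Fcgr1, Fcgr3 and Spp1 were called here and not there, and Lyz2 and Trem2 there and not here. Both comparisons use the same young libraries, and these lists were not tested for a difference. Calls against young sham depended on single libraries. In the age comparison 4.02% of all genes were called in either direction with all libraries. When young sham replicate 1 or aged sham replicate 2 or 3 was left out, 1 member was called (0.227%, 0.222% and 0.131% of all genes). The count was 3 without young sham replicate 3 or aged injury replicate 3 (0.239% and 0.858%). It was 6 without aged injury replicate 1 or 2 (0.983% and 1.52%), 10 without young sham replicate 2 (8.73%) and 14 without aged sham replicate 1 (2.53%). Of the 9 fits, Lgals3 was called in 9, Tspo and Tyrobp in 6, Fcer1g, Fcgr2b and Gpnmb in 4, Cd68 and Trem2 in 2 and Csf1r and Lyz2 in 1, with log2 differences of the same sign throughout. For aged injury against young sham the count was 5, 9 and 6 without young sham replicates 1, 2 and 3, 19, 12 and 12 without aged sham replicates 1, 2 and 3, and 12, 6 and 3 without aged injury replicates 1, 2 and 3. There Lgals3, Fcgr2b and Tspo were called in all 9 fits. The shares of all genes called in these 9 fits are not given here, so the counts are not read as a result about the members.

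**Figure D1:**
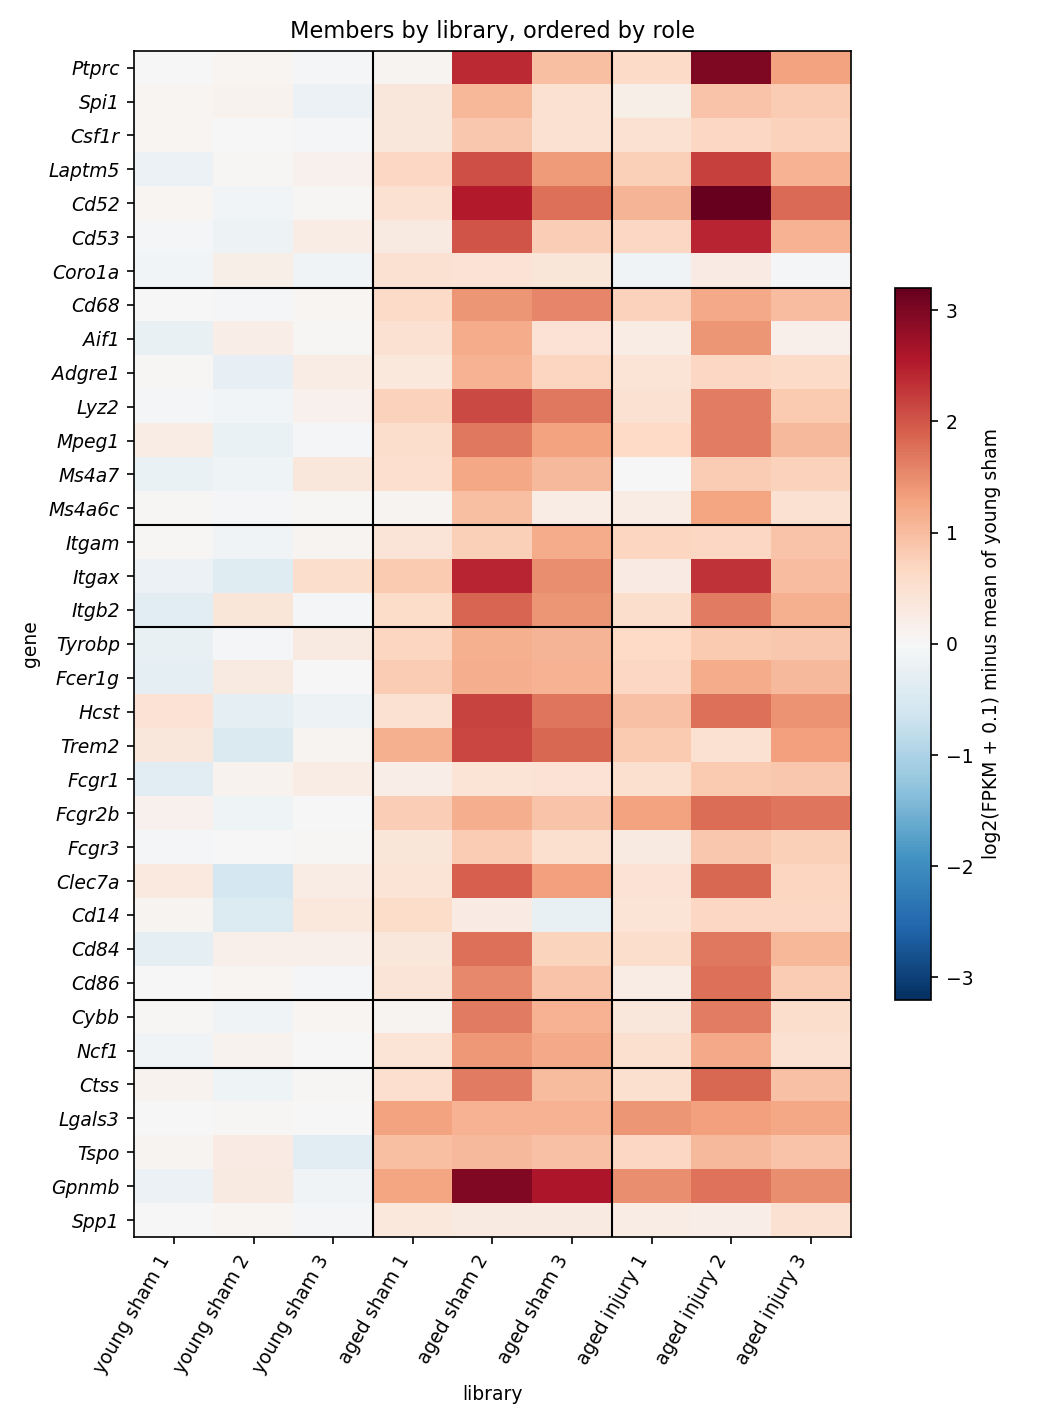
Heat map of the 35 members (rows, by role) in the 9 libraries (columns). Colour is log2(FPKM + 0.1) minus the mean of the 3 young sham libraries. Aged libraries are mostly above the young mean, with the 2 libraries numbered 2 standing out in many rows and aged sham replicate 1 and aged injury replicate 1 being paler.

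Within each aged group the members did not sit at 1 level. Aged sham replicate 1 was the lowest of its group in 29 of 35 members (82.9%, against 40.8% of all genes), and aged sham replicate 2 the highest in 28 (80%, against 40.4%). Aged injury replicate 1 was the lowest of its group in 28 of 35 (80%, against 38.6%) and aged injury replicate 2 the highest in 27 (77.1%, against 41.3%). The ratio of aged sham replicate 2 to replicate 1 had a median of 1.86 over the members, from 0.791 for Cd14 to 5.21 for Ptprc, against 1.03 over all genes, and it exceeded 2 in 16 members (4.47% of all genes). The corresponding ratio after injury had a median of 1.70, from 0.733 for Trem2 to 5.64 for Itgax, against 1.03, and it exceeded 2 in 15 members (5.04% of all genes). Lgals3 and Spp1 were below 1 in both ratios, Cd14 and Coro1a in the sham ratio, and Itgam and Trem2 in the injury ratio. The libraries with high member levels also held the most RNA of lymphocyte genes, whose values follow further below.

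Of the 11 receptors and adaptors, 4 rose in aged sham, and the largest difference was that of Trem2. Tyrobp, the adaptor of Trem2 and of other activating receptors, was at 9.01, 10.1 and 12.9 FPKM in young sham, 17.1, 23.4 and 22.4 FPKM in aged sham and 16.6, 18.9 and 19.3 FPKM in aged injury. All 6 aged libraries lay above all 3 young ones, and the aged groups overlapped. It rose 1.96-fold in aged sham (log2 0.97 ± 0.15 SE, limma adjusted p = 0.0224) and its injury difference was -0.19 (adjusted p = 0.542). Fcer1g, the gamma chain that carries Fc receptors to the surface, was at 4.83, 7.24 and 6.05 FPKM, then 10.6, 13.6 and 12.9 FPKM, then 9.52, 13.8 and 12.3 FPKM in the same order of groups. It rose 2.04-fold in aged sham (1.03 ± 0.17, adjusted p = 0.0273), and its aged sham and injury values overlapped. Hcst, whose gene lies next to Tyrobp on the opposite strand (chr7:30417712-30419854 against chr7:30413760-30417585 in mm10), had a log2 difference of 1.45 in aged sham that did not pass (adjusted p = 0.0728). Whether the counting kept the strands of the neighbouring pair apart is not given in the sources used here.

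Trem2, a receptor for lipids and apoptotic material on phagocytes, was at 0.307, 0.130 and 0.235 FPKM in young sham and at 0.597, 1.29 and 1.04 FPKM in aged sham. In aged injury it was at 0.463, 0.339 and 0.681 FPKM, so 2 of the 3 injury libraries lay below all aged sham libraries and the groups overlapped. It rose 3.27-fold in aged sham (log2 1.71 ± 0.36 SE, limma adjusted p = 0.0408). The injury difference was -0.84 ± 0.36 with a 95% interval of -1.64 to -0.03 and did not pass after adjustment (adjusted p = 0.233). Trem2 is a low gene here, read from 8 to 71 fragments per library.

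Fcgr2b, the inhibitory Fc receptor of phagocytes and B cells, was the member nearest to a call after injury. Its level was 1.36, 1.11 and 1.23 FPKM in young sham, 2.2, 2.89 and 2.40 FPKM in aged sham and 3.12, 4.49 and 4.29 FPKM in aged injury. The 3 groups did not overlap, and each injury library was above every aged sham library. The gene rose 1.94-fold in aged sham (log2 0.96 ± 0.16 SE, limma adjusted p = 0.0273). After injury the difference was 0.64 ± 0.16 (95% interval 0.28 to 1.0, adjusted p = 0.0624), and aged injury against young sham reached 1.60 (adjusted p = 0.000909). Fcgr1, the high-affinity activating receptor, was at 0.762, 1.09 and 1.21 FPKM in young sham, 1.17, 1.39 and 1.41 FPKM in aged sham and 1.48, 1.89 and 1.89 FPKM in aged injury. Neither step passed by itself (0.36, adjusted p = 0.244, then 0.38, adjusted p = 0.301), while the span from young sham to aged injury did (0.74, adjusted p = 0.0317). Fcgr3, the low-affinity activating receptor, differed by 0.57 in aged sham (adjusted p = 0.0685) and by 0.07 after injury (adjusted p = 0.845).

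The other receptors spread widely among the aged libraries. Cd14, the co-receptor for bacterial lipopolysaccharide, was at 1.88, 1.28 and 2.22 FPKM in young sham, 2.67, 2.11 and 1.48 FPKM in aged sham and 2.40, 2.83 and 2.86 FPKM in aged injury. Its age difference was the smallest of the members, 0.20 (limma adjusted p = 0.613), with overlapping groups. Clec7a, the receptor for fungal glucan, Cd84, a self-binding leukocyte receptor, and Cd86, which costimulates T cells, had age differences of 1.22, 0.94 and 0.96, none past the test (adjusted p = 0.132, 0.176 and 0.165).

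Of the 5 lysosomal, lectin and lipid-handling genes, Lgals3, Tspo and Gpnmb rose in aged sham. Lgals3 encodes galectin-3, a sugar-binding protein of activated phagocytes that small sensory neurons also make. It was at 8.86, 9.14 and 8.92 FPKM in young sham, 22.2, 19.5 and 19.6 FPKM in aged sham and 23.9, 22.3 and 21.3 FPKM in aged injury. The young libraries lay close together, every aged library was more than 2 times their mean, and the 2 aged groups overlapped. The level rose from 8.97 ± 0.15 to 20.4 ± 1.5 FPKM (SD, n = 3 each), 2.26-fold (log2 1.18 ± 0.07 SE, 95% interval 1.02 to 1.33, limma adjusted p = 0.000501). Its standard error was the smallest among the members, and no library numbered 2 stood out. The injury difference was 0.14 with an interval of -0.02 to 0.29 (adjusted p = 0.313).

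Tspo, the outer mitochondrial membrane protein whose ligands are used to image activated microglia and macrophages, was at 11.7, 13.4 and 8.71 FPKM in young sham, 21.6, 22.9 and 21.4 FPKM in aged sham and 17.6, 22.8 and 20.9 FPKM in aged injury. It rose 1.97-fold in aged sham (log2 0.98 ± 0.15 SE, limma adjusted p = 0.0218), and the aged groups overlapped (-0.11, adjusted p = 0.736). Gpnmb, a transmembrane glycoprotein of lysosome-loaded macrophages, had the largest age difference of the members. Its level was 1.32, 1.86 and 1.39 FPKM in young sham, 3.74, 12.5 and 9.59 FPKM in aged sham and 4.43, 5.28 and 4.39 FPKM in aged injury. Aged sham replicate 1 lay below all 3 injury libraries and the other aged sham libraries above them. The rise in aged sham was 4.83-fold (log2 2.27 ± 0.37 SE, adjusted p = 0.0253). The injury difference of -0.70 ± 0.37 did not pass (adjusted p = 0.336), but without aged sham replicate 1, the pool of both sexes, it was -1.21 ± 0.18 and passed (adjusted p = 0.0156). That was the 1 fit of the 9 without a single library in which it passed. Over all alternative fits the injury difference of Gpnmb ran from -1.21 to -0.35, with limma adjusted p up to 0.653.

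Ctss, cathepsin S, a lysosomal protease of antigen-presenting cells, was higher in every aged sham library than in young sham, and its difference of 1.08 did not pass (limma adjusted p = 0.095). Spp1, osteopontin, had the highest level of the members, and large sensory neurons make it too. It was at 138, 144 and 131 FPKM in young sham, 174, 169 and 166 FPKM in aged sham and 162, 160 and 191 FPKM in aged injury. No aged library overlapped the young ones, although the difference was small (log2 0.30 ± 0.07 SE, adjusted p = 0.0531 in aged sham). Aged injury against young sham passed with a like difference (0.31, adjusted p = 0.0266), and injury against aged sham gave 0.01 (adjusted p = 0.968).

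**Figure D2:**
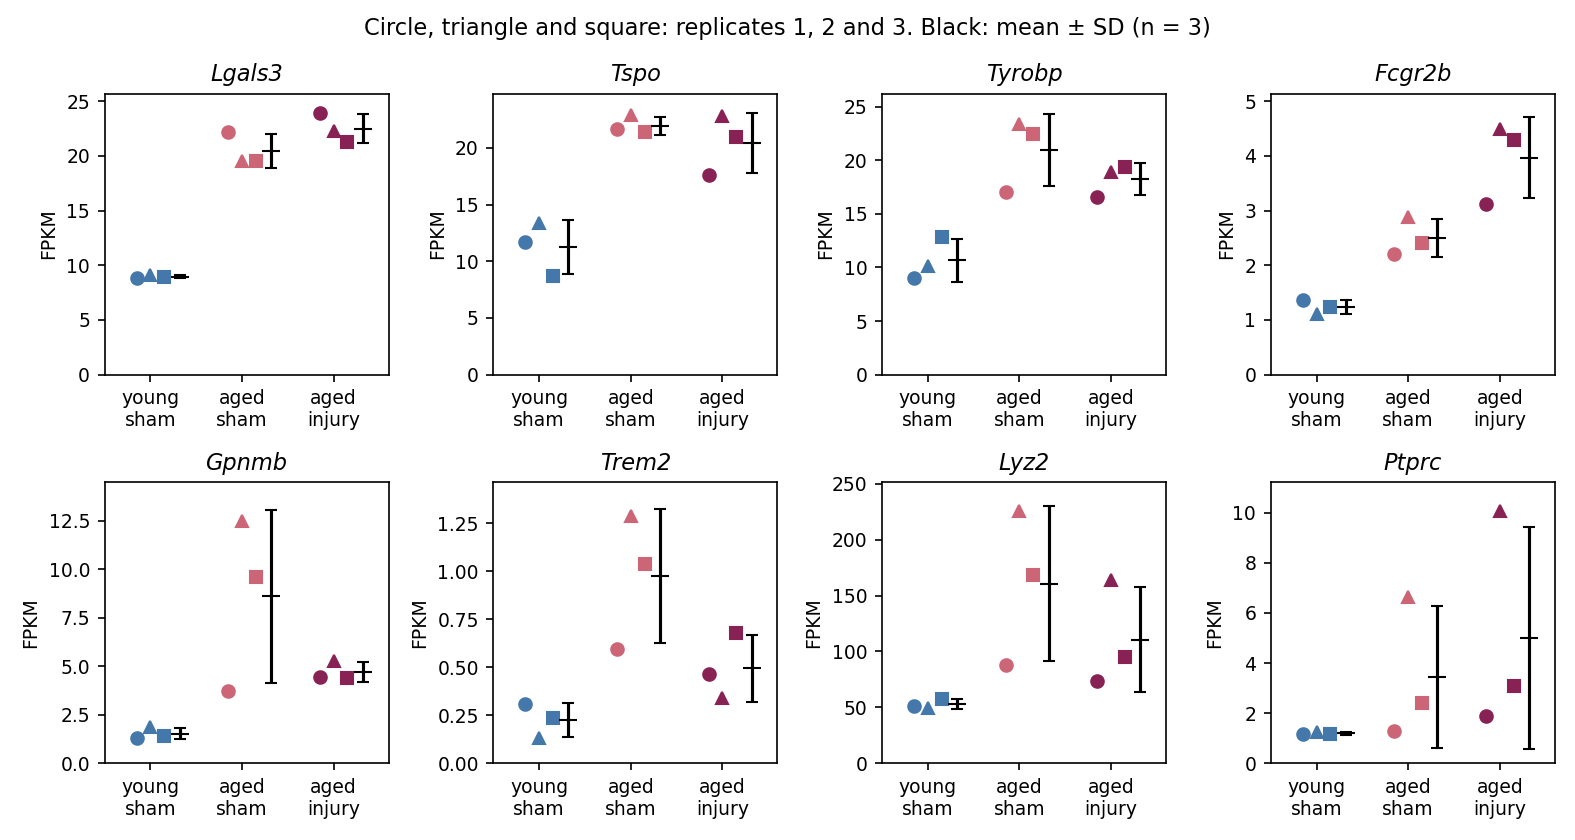
FPKM (vertical axes, linear from 0) of Lgals3, Tspo, Tyrobp, Fcgr2b, Gpnmb, Trem2, Lyz2 and Ptprc in each library of young sham, aged sham and aged injury. Circles, triangles and squares are replicates 1, 2 and 3, and black marks give the mean ± SD (n = 3). Lgals3 shows tight groups, Fcgr2b 3 separate groups, and Lyz2 and Ptprc a wide spread among aged libraries with replicate 2 on top.

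Among the 7 macrophage markers, Cd68 and Lyz2 rose in aged sham. Cd68, a glycoprotein of the phagocyte lysosome, was at 2.23, 2.18 and 2.35 FPKM in young sham, 3.52, 6.20 and 6.80 FPKM in aged sham and 3.84, 5.40 and 4.53 FPKM in aged injury. It rose 2.30-fold (log2 1.20 ± 0.22 SE, limma adjusted p = 0.0337), with overlapping aged groups (-0.22, adjusted p = 0.643). Lyz2, the lysozyme of macrophages and neutrophils, was at 50.8, 49.6 and 57.7 FPKM in young sham, 88.0, 226 and 168 FPKM in aged sham and 73.3, 164 and 94.7 FPKM in aged injury. The rise was 2.84-fold in aged sham (1.51 ± 0.35, adjusted p = 0.0495). Each injury library lay below the aged sham library of the same rank, but the groups overlapped and the difference of -0.52 did not pass (adjusted p = 0.468). Lyz2 has a near-identical copy, Lyz1, so its level is uncertain where reads could not be assigned.

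Adgre1 (the F4/80 antigen), Mpeg1 (a pore-forming protein), Ms4a7, Ms4a6c and Aif1 (an actin-binding protein also called Iba1) did not pass in aged sham. Their log2 differences ran from 0.43 for Ms4a6c to 1.18 for Mpeg1, with limma adjusted p-values of 0.0699 for Adgre1, 0.0599 for Mpeg1, 0.0877 for Ms4a7, 0.202 for Aif1 and 0.356 for Ms4a6c. In each of them the 3 aged sham libraries lay above the 3 young ones.

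One of the 7 lineage and pan-leukocyte genes rose in aged sham. Csf1r, the receptor for the growth factors CSF1 and interleukin-34, was at 3.8, 3.56 and 3.47 FPKM in young sham, 4.66, 6.61 and 5.13 FPKM in aged sham and 5.08, 5.73 and 6.07 FPKM in aged injury. It rose 1.49-fold (log2 0.57 ± 0.13 SE, limma adjusted p = 0.0433), and the aged groups overlapped (0.05, adjusted p = 0.865). Spi1, which encodes the myeloid transcription factor PU.1, differed by 0.64 in aged sham (adjusted p = 0.133) and by 0.00 after injury.

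The pan-leukocyte genes varied widely between pools of 1 group. Ptprc, the CD45 phosphatase of all white blood cells, was at 1.17, 1.24 and 1.16 FPKM in young sham, 1.27, 6.65 and 2.41 FPKM in aged sham and 1.88, 10.1 and 3.07 FPKM in aged injury. Aged sham replicate 1 lay close to the young level and replicate 2 of each aged group far above the rest. Its standard error was the largest among the members, and neither comparison passed (1.15 ± 0.64, limma adjusted p = 0.285, and 0.48 ± 0.64, adjusted p = 0.733). Cd52, a small surface glycoprotein of lymphocytes and monocytes, was at 3.58, 3.19 and 3.47 FPKM, then 4.84, 20.2 and 11.8 FPKM, then 7.30, 34.5 and 12.2 FPKM in the same order of groups. It had a difference of 1.59 in aged sham (adjusted p = 0.129), 0.47 after injury (adjusted p = 0.711) and 2.06 from young sham to aged injury, which passed (adjusted p = 0.0484). Cd53, a tetraspanin, and Laptm5, a lysosomal protein of blood cells, had age differences of 1.03 and 1.36 (adjusted p = 0.224 and 0.078).

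Coro1a, the actin regulator coronin-1A, which neurons also make, behaved apart from these. It was at 37.6, 45.5 and 36.7 FPKM in young sham, 55.9, 54.5 and 51.8 FPKM in aged sham and 36.7, 47.7 and 38.1 FPKM in aged injury. The aged sham libraries lay above both other groups, and young sham and aged injury overlapped. The differences were 0.44 ± 0.11 in aged sham (limma adjusted p = 0.0559) and -0.41 ± 0.11 after injury (95% interval -0.66 to -0.16, adjusted p = 0.0761), and neither passed. Without aged injury replicate 2 the injury difference was -0.53 (adjusted p = 0.039), the 1 fit of the 9 without a single library in which it passed. Over all alternative fits it ran from -0.53 to -0.34, with limma adjusted p up to 0.229.

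None of the 3 integrin subunits or the 2 oxidase subunits passed in aged sham or after injury. Itgb2, the beta chain shared by leukocyte integrins, was at 1.37, 2.32 and 1.70 FPKM in young sham, 2.67, 6.67 and 4.83 FPKM in aged sham and 2.64, 5.79 and 4.02 FPKM in aged injury, with no overlap of aged and young libraries (limma log2 1.29, adjusted p = 0.0705). Itgam, the alpha chain CD11b, differed by 0.79 in aged sham (adjusted p = 0.0527), and Itgax, the alpha chain CD11c, by 1.58 (adjusted p = 0.128) from a young level of 0.0994 to 0.288 FPKM. Cybb, the X-linked catalytic subunit of the phagocyte oxidase, was at 1.68, 1.51 and 1.73 FPKM in young sham, 1.75, 5.42 and 3.64 FPKM in aged sham and 2.15, 5.33 and 2.47 FPKM in aged injury. Aged sham replicate 1 was just above the young libraries, and the difference of 0.95 did not pass (adjusted p = 0.178). Ncf1, the cytosolic organiser of the same enzyme, differed by 1.01 (adjusted p = 0.0614).

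**Figure D3:**
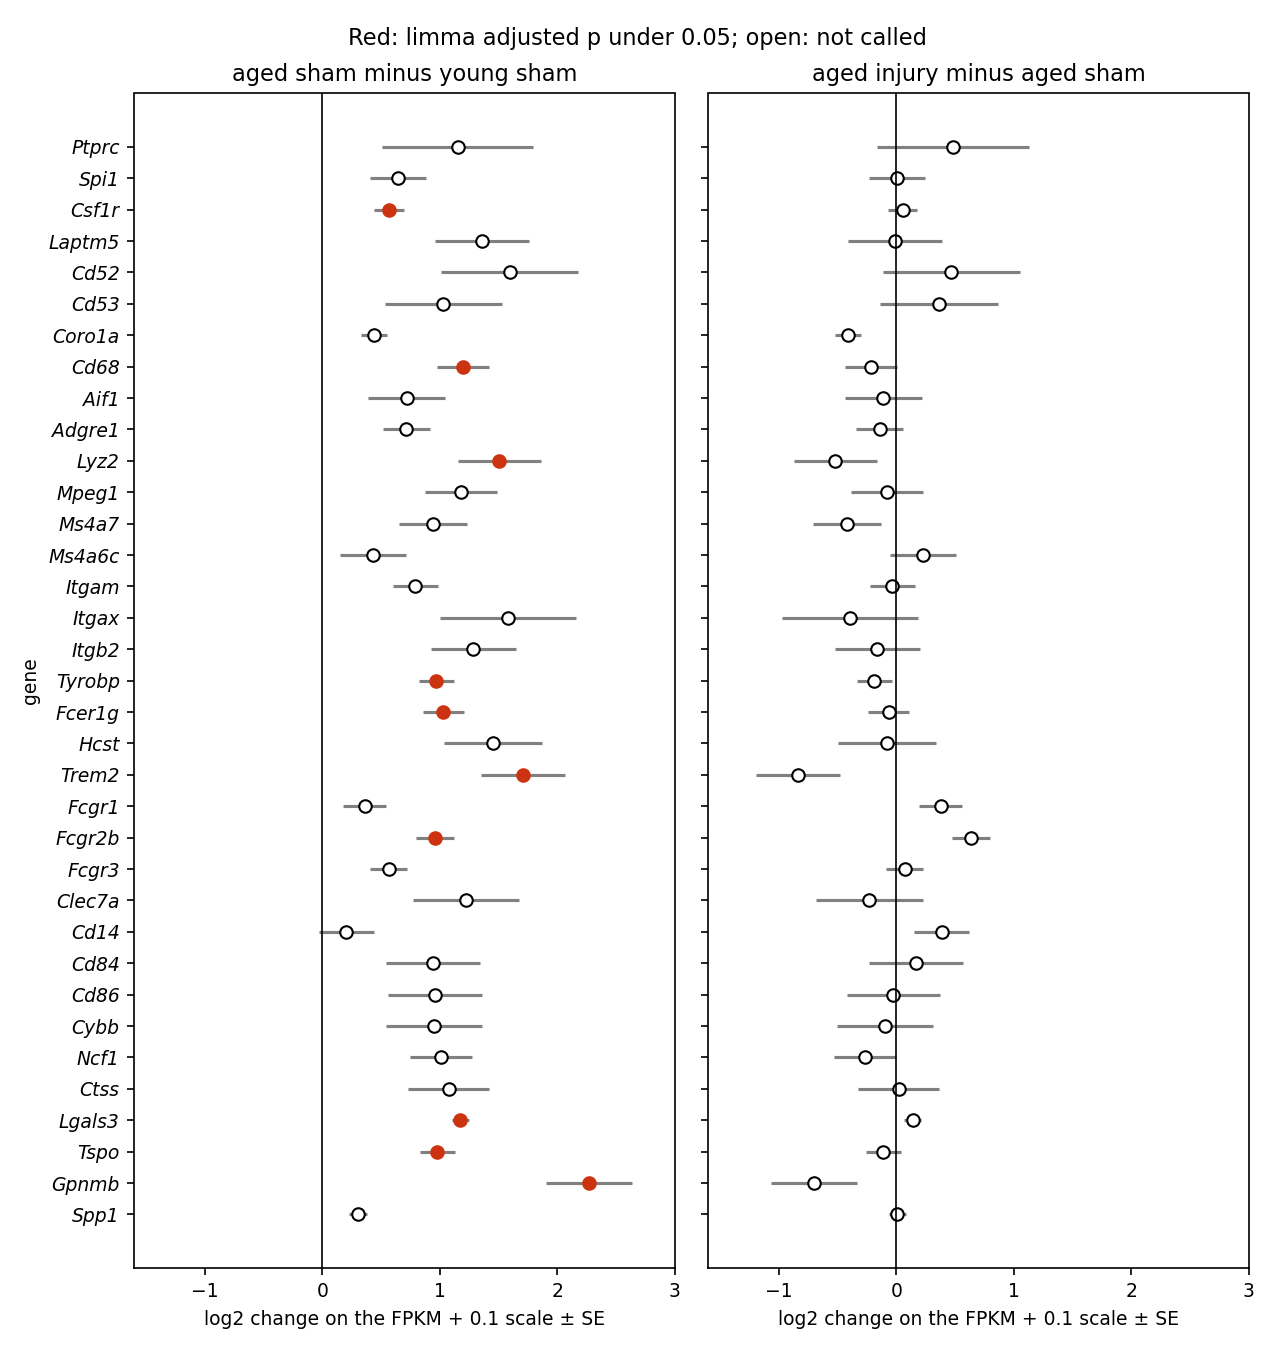
Log2 difference of each member on the log2(FPKM + 0.1) scale with its standard error (horizontal axis), ordered by role, for aged sham against young sham and aged injury against aged sham. Red points passed an adjusted p under 0.05 in limma: 10 are red for age and none for injury, where points lie on both sides of 0.

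Promoters of members that rose in aged sham are shown because PU.1, the product of Spi1, is known to bind many promoters of myeloid genes. Windows of 250 bases before to 50 after the RefSeq start (GRCm38.p6, the same build as mm10) were searched on both strands for GAGGAA, a core of PU.1 sites, and TGAGTCA, the AP-1 site, which do not overlap each other. Of the 26 members with a window in the table, 15 (57.7%) held the PU.1 core in at least 1 window, against 31.3% of 27025 genes, and 4 (15.4%) held the AP-1 site, against 5.9%. A match describes letters and does not show binding. Of the 6 members with the smallest p for age that have a window, Cd68, Trem2 and Gpnmb held a match and Lgals3, Fcer1g and Fcgr2b held none. The windows with a match and that of Lgals3, the member with the smallest p, are printed. Cd68 (chr11:69666121-69666420, minus strand) held both motifs, Trem2 (chr17:48346151-48346450, plus strand) the PU.1 core, Gpnmb (chr6:49036268-49036567, plus strand) the AP-1 site, and Lgals3 (chr14:47373610-47373909, plus strand) neither. The RefSeq start of Lgals3 lies inside the span of its GENCODE gene (chr14:47367751-47386160). The sequences are printed 5′ to 3′ on the strand of the gene, with matches in capitals.
Cd68: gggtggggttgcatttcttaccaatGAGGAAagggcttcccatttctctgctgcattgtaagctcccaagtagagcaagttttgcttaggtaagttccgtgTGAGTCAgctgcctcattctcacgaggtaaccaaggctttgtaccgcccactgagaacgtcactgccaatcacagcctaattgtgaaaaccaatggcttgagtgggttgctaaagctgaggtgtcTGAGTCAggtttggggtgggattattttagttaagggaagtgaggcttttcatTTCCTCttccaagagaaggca
Trem2: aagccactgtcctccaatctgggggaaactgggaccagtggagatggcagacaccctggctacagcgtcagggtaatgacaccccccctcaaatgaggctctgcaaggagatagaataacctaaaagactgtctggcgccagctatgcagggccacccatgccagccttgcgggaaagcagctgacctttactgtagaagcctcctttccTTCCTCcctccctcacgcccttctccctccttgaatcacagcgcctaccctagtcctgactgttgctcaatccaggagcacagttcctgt
Gpnmb: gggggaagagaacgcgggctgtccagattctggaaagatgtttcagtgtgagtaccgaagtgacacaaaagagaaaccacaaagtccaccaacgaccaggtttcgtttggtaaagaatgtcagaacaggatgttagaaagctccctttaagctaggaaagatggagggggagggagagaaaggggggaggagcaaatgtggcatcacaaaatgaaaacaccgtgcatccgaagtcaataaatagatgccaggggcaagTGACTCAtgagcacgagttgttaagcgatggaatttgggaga
Lgals3: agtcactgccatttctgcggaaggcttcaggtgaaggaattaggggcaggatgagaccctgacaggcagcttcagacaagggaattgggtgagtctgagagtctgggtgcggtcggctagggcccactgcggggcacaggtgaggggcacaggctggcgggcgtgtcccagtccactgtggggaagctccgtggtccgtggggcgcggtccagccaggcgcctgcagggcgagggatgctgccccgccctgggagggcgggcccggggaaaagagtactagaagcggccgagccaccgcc
Counted from the start base as 0, the PU.1 core began at -225 and 29 and the AP-1 site at -149 and -24 in Cd68, the PU.1 core at -40 in Trem2 and the AP-1 site at 8 in Gpnmb.

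Upstream of Csf1r, the ligand Csf1 rose after injury and the ligand Il34 rose in aged sham. Csf1 was at 4.38, 5.12 and 4.05 FPKM in young sham, 7.0, 4.57 and 5.11 FPKM in aged sham and 15.8, 13.1 and 15.3 FPKM in aged injury. Every injury library lay far above every sham library (log2 1.41, limma adjusted p = 0.00444), while Csf1r itself did not differ beyond its spread. Il34, the other ligand, rose from 11.4 to 12.5 FPKM in young sham to 15.3 to 17.0 FPKM in aged sham (0.40, adjusted p = 0.029) and was at 13.6 to 15.2 FPKM after injury (-0.15, adjusted p = 0.28). Of the 18 genes listed for colony-stimulating factors, their receptors and myeloid transcription factors, 16 were tested. In aged sham 2 of them rose, Il34 and the neutrophil growth factor receptor Csf3r. After injury 2 rose, Csf1 and the transcription factor gene Bhlhe41. None of the 16 passed in the lower direction in either comparison, although Csf3r (log2 -0.51, limma adjusted p = 0.0946) and Il34 lay below every aged sham library after injury.

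Downstream of the adaptors, none of 25 tested signalling genes and further receptors of the pathway passed in aged sham or after injury, although all 25 had an age difference above 0 (median 0.73). Pik3cg, Fcgr4 and Clec4a3 were called higher in aged injury against young sham. Of 6 further oxidase genes, Cyba, the membrane partner of Cybb, rose in aged sham, from 6.20, 6.16 and 6.38 FPKM to 11.6, 24.4 and 17.5 FPKM (log2 1.43, limma adjusted p = 0.0331). Of 29 tested lysosomal and lipid-handling genes, the protease gene Ctsd (0.43, adjusted p = 0.0224) and the progranulin gene Grn (0.47, adjusted p = 0.0433) rose in aged sham and the lipid-droplet gene Plin2 after injury (0.79, adjusted p = 0.00744). Among 15 tested inflammatory mediators none passed in aged sham, and Il6 rose after injury (1.76, adjusted p = 0.00886).

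Markers of other blood cells differed between the same libraries. On the scale of mean log2 difference from the young mean, the 35 members were at 0.55, 1.45 and 1.03 in aged sham replicates 1, 2 and 3 and at 0.57, 1.39 and 0.92 in aged injury. The 8 T and NK cell genes were at 0.72, 3.77 and 1.98, then 1.29, 4.17 and 2.40, and the 7 B and plasma cell genes at 0.94, 4.14 and 2.67, then 1.97, 5.26 and 3.62, the same order of libraries in both groups. Summed FPKM of the B and plasma cell genes ran from 12.9 to 15.2 in young sham, from 75.3 to 587 in aged sham and from 269 to 2293 in aged injury, and those of the T and NK cell genes from 1.53 to 2.91, from 3.74 to 38.1 and from 6.92 to 51.3. Igkc, the kappa light chain, was the 1 called gene of these 2 lists in aged sham (limma log2 4.39, adjusted p = 0.0344). Their part in the values of the shared leukocyte members was not tested.

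Neutrophil genes were higher in aged sham than in the other groups. Their summed level was 150 to 243 FPKM in young sham, 344, 503 and 623 FPKM in aged sham and 322, 188 and 195 FPKM in aged injury. Of the 9 genes 7 rose in aged sham, and Camp, Ngp and Ltf fell after injury, by 1.04, 1.18 and 1.18 on the log2 scale (limma adjusted p = 0.0451, 0.0385 and 0.0246). Lyz2, Itgam, Itgb2, Cybb, Ncf1 and Fcer1g are shared with neutrophils, and the part of neutrophils in their values was not tested. The 8 genes of resident perivascular macrophages showed a smaller spread, 0.39, 0.38 and 0.56 in aged sham and 0.69, 0.59 and 0.97 in aged injury. In that list Pf4 rose in aged sham (0.79, adjusted p = 0.0253) and Mrc1, the mannose receptor, rose after injury (0.59, adjusted p = 0.0482). No gene of the 6 tested monocyte genes, the 6 tested microglia-type genes or the 6 tested proliferation genes passed in either comparison.

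**Figure D4:**
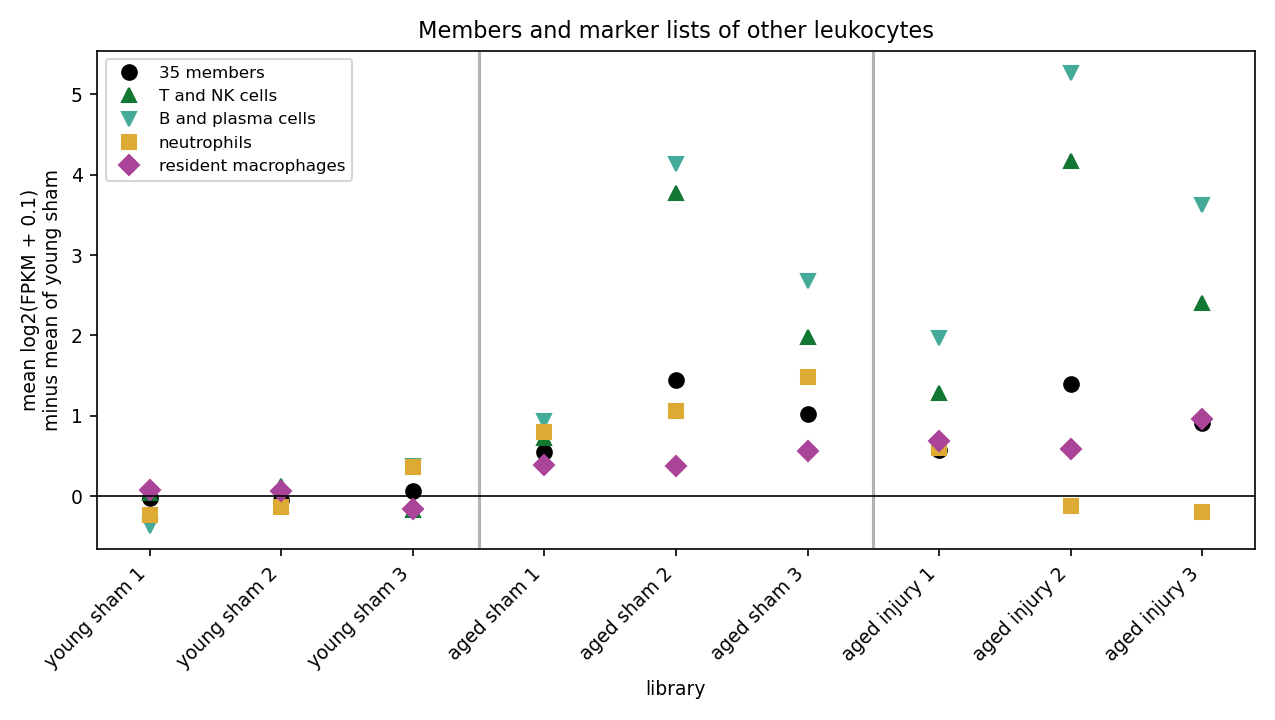
Mean log2 difference from the young sham mean (vertical axis) in each of the 9 libraries for the 35 members and for T and NK cell, B and plasma cell, neutrophil and resident perivascular macrophage genes. Within each aged group the members follow the order of the lymphocyte lists at a smaller size, and the neutrophil list falls to about 0 in aged injury replicates 2 and 3.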

How the data were processed

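The authors deposited FPKM values for 9 libraries. Per the submitters' processing notes, which do not assign roles, the tools were FastQC 0.10.1, limma 3.22.7, edgeR 3.8.6, HTSeq 0.6.0, SAMtools 0.1.19, Bowtie2 2.2.3 and TopHat2 2.0.12, with mm10 as the build. Libraries were paired-end and made with an Illumina TruSeq kit for mRNA, per the labels' protocols. How strand was handled, the annotation used and the absolute depth were not stated. Symbols and positions came from GENCODE M21 (GRCm38), and promoter windows from RefSeq.

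The test was a moderated linear model (limma 3.58.1, R 4.3.3) of log2(FPKM + 0.1) with a variance trend. It covered the 17601 genes that averaged 0.2 FPKM or more. The 9 libraries shared 1 fit without a replicate block. Tests were two-sided, and p-values were adjusted over all genes by Benjamini and Hochberg, with calls at 0.05. The members and lists were chosen with earlier results of these data known. All members could be named. Values in each library are given for members called for age or for injury in the aged, the highest member of each role and the 3 highest and 3 lowest differences in each of these 2 comparisons. Further lists name up to 3 genes by smallest p, plus Csf1 and Il34, and a gene called only between aged injury and young sham was named after its value was seen. The script was tested on simulated data. No label says whether the pools of a group were collected separately in time, so a p-value here reflects only how these pools varied, which may be technical in part. Some genes of the further lists are not reported here.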

Additional observations from a re-analysis of the deposited data

How the results depend on the processing

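The count of members called in the age comparison was 10, with 4.02% of all genes called in either direction. It changed to 6 with no filter on low values (0.946% of all genes) and to 21 with array weights (11.5%). It was 1 with the share of Y-linked expression as a covariate (0.0284%) and with the 2 groups compared alone (0.176%). It was also 1 with both libraries numbered 2 of the aged groups left out (0.159%), an alternative chosen after seeing the data. Leaving out 1 library at a time gave 1 to 14. Lgals3 was called in all of these fits. The count after injury was 0 and became 1 with libraries scaled to equal medians (Coro1a), quantile normalization (Fcgr2b), array weights (Coro1a) and the Y-linked covariate (Gpnmb), and was 0 to 1 without single libraries. The count of aged injury against young sham was 14, with 13.1% of all genes called in either direction. It was 1 under the Y-linked covariate, 3 without both libraries numbered 2, and 3 to 19 without single libraries. For injury and for aged injury against young sham, the shares of all genes called in the alternative fits are not given here. The changes in these counts are therefore not read as a result about the members. The median difference moved with the Y-linked covariate from 0.978 to 0.206 for age and from 0.936 to -0.153 for aged injury against young sham. The cause was not tested, and the covariate nearly separates young from aged pools. With that covariate 7 of 35 members were below 0 for age and 22 of 35 for aged injury against young sham, where 0 were before. Among the members followed singly under every alternative, which were not all 35, the sign changed for Cd52 in age (-0.23), for Cd52 (-0.06), Csf1r (-0.05) and Ptprc (-0.04) after injury, and for Cd52 (-0.29), Cd68 (-0.25), Gpnmb (-0.71), Itgam (-0.02) and Mpeg1 (-0.19) in aged injury against young sham. Without single libraries the age difference of Cd14 ran from -0.01 to 0.42, and the injury differences from -0.15 to 0.96 for Cd52, -0.05 to 0.2 for Csf1r, -0.18 to 0.08 for Fcer1g and -0.19 to 1.1 for Ptprc, so that their sign rests on single libraries. With the replicate number as a block, 7 members were called for age, with 0.574% of all genes called in either direction. In that fit 0 were called for injury and 17 for aged injury against young sham, where the shares over all genes are also not given. Same-numbered libraries correlated at -0.067 to 0.27 in their deviations from group means, and differently numbered ones at -0.26 to 0.079. Between aged sham and aged injury, same-numbered libraries correlated at 0.245, 0.27 and 0.062, and differently numbered ones at -0.26 to 0.041. No label gives the numbers as a pairing, and they were not taken as one. Whether same-numbered aged pools share a factor was not tested. Low fragment numbers limit Hcst, Itgax and Trem2.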

Other observations

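Cells of other types were followed only through their marker genes. Of the 5 tested mast cell genes, Tpsb2, a mast cell protease, rose in aged sham (log2 1.08, limma adjusted p = 0.0415). None of the 5 red blood cell genes passed in either comparison, with median log2 differences of 0.63 in aged sham and -0.62 after injury. Of 6 satellite glia genes, Entpd2 rose (0.76, adjusted p = 0.00881) and Gja1 (-0.80, adjusted p = 0.0222) and Ednrb (-0.95, adjusted p = 0.00762) fell in aged sham, and Glul, glutamine synthetase, rose after injury (0.41, adjusted p = 0.0153). Among the Schwann cell genes, the myelin gene Pmp22 fell in aged sham (-0.63, adjusted p = 0.00966). The sensory neuron transcription factor genes Isl1 (-0.33, adjusted p = 0.0284) and Pou4f1 (-0.39, adjusted p = 0.0169) fell in aged sham, and Isl1 fell after injury (-0.26, adjusted p = 0.0391). Cldn5, of the 5 endothelial genes, rose in aged sham (0.38, adjusted p = 0.0474) and fell after injury (-0.55, adjusted p = 0.0131). No gene of the fibroblast, dendritic cell or fat and muscle lists passed in either of these comparisons. These values come from the same limma fit across all genes, and the young against aged values carry the same difference in sex.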
